A study of Mus musculus with 2 samples.

Results

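The redox genes described here are 10 genes of the glutathione and thioredoxin systems, chosen by name: Gclm, Gclc, Gss, Gsr, Gpx1, Gpx4, Gpx8, Txnrd1, Txnip and Nfe2l2. The choice was made with STAT5 binding values of these data in view. Of these 10 genes, 5 (Gclm, Gpx8, Txnrd1, Txnip and Nfe2l2) were among the 4934 genes of the deposited table, and the other 5 had no assigned region. Over all 21900 protein-coding RefSeq genes, 19.1% had an assigned region, and since the genes were chosen with these values known, nothing is read from the difference. The table came from chromatin immunoprecipitation followed by sequencing with an antibody to STAT5, the factor that IL-2 receptor signalling activates. The cells were C57BL/6 effector CD8 T cells carrying the OT-I T cell receptor, which recognises the ovalbumin peptide SIINFEKL. They had been transferred into mice, primed there with peptide and with agonists of CD134 and CD137, and sorted from spleen after 4 days. The IL-2 group was 1 library of such cells given 0.5 µg/ml IL-2 in vitro for 1 hour, and the control group was 1 library without it. Whether animals were pooled is not stated in the labels.

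Glutathione is a tripeptide that buffers cells against oxidants, and it is made by glutamate-cysteine ligase followed by glutathione synthetase. Glutathione peroxidases spend it to remove peroxides, and glutathione reductase returns it to the reduced form. Thioredoxin does parallel work on oxidised proteins and is itself kept reduced by thioredoxin reductase, with NADPH as the electron source of both systems. NRF2, encoded by Nfe2l2, is the transcription factor that raises many of these genes under oxidative stress, and T cells need glutathione to grow after activation.

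All values are peak heights in the signal units of the deposited table, and a gene with several regions has the mean over them. Depth, scaling between the libraries and counting error are unknown. Each group was a single library, so no replicate spread exists and the difference between the groups was not tested. The cells were measured in bulk, so more cells with STAT5 at a site and more STAT5 per cell cannot be told apart. A ratio is (IL-2 height + 5) / (control height + 5), and a gene passed the 2-fold rule where this was 2 or more. Genes entered the table through a region that was called near them after IL-2, which by selection favours high ratios. Over all 4934 genes the median height was 20.75 with IL-2 (interquartile range 15 to 33) and 5 in control (4 to 5.8). The cell type label could not be checked in these data, since a region near a gene is not a measure of its expression. Of 8 markers chosen for CD8 T cells, the table held 7 (Cd8a, Cd8b1, Cd3d, Cd3e, Cd3g, Cd2 and Lck). Among these, only Cd8a and Cd8b1 set CD8 T cells apart from CD4 T cells. The table held 0 of 5 B cell markers, 0 of 1 CD4 T cell marker (Cd4), 1 of 5 myeloid markers (Cd68) and 1 of 2 natural killer cell markers (Klrb1c). Over all protein-coding RefSeq genes the share was 19.1%.

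The 5 listed redox genes had 6 STAT5 regions between them, all called in the IL-2 library and none in the control library. IL-2 heights spanned 35.5 to 136, and control heights spanned 3 to 6. All 5 passed the 2-fold rule, and 4 of them (all but Txnip) passed a 4-fold rule. Over all genes of the table, 83.8% passed the 2-fold rule and 23.1% the 4-fold rule. The median log2 ratio was 3.31 for the 5 listed redox genes and 1.42 for all 4934 genes. With the libraries brought to equal medians, Txnip and Nfe2l2 no longer passed the 2-fold rule (log2 ratios 0.40 and 0.71), while the other 3 did. These genes were picked partly for such values, so the difference is a description and supports nothing further.

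**Figure D1:**
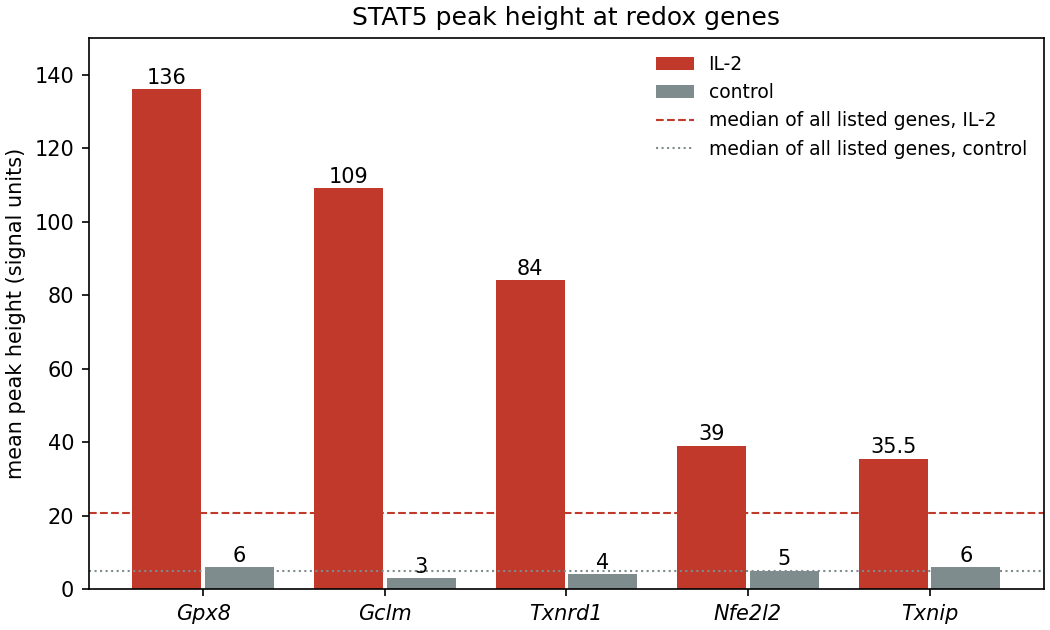
Mean STAT5 peak height in signal units (vertical axis) of the 5 listed redox genes, with the IL-2 library in red and the control library in grey; there is 1 library per group and so no error bar. All 5 red bars lie above the median IL-2 height of all listed genes (20.75, dashed line), while the grey bars, at 3 to 6, lie around the control median of 5 (dotted line).

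Gclm, the modifier subunit of glutamate-cysteine ligase, which lowers the amount of substrate the enzyme needs, carried the only region that the table placed within 1 kb of a redox gene start. Its single region had a height of 109 with IL-2 and 3 in control, a log2 ratio of 3.83, and its highest peak was also 109. Gclm had the lowest control height among the 5 listed redox genes and the largest ratio. With a pseudocount of 10, the log2 ratios of Gclm and Gpx8 were both 3.19. By IL-2 minus control height, Gpx8 (130) was above Gclm (106), so the order of these 2 genes depends on the measure. Of all 4934 genes, 9 had a larger ratio and 33 a larger IL-2 height. Ranks here and below compare gene means, so a gene with several regions can hold a stronger single region and rank lower. Me1, with a mean of 51.3 and a highest peak of 110, was such a gene. The Gclm region was placed at position 122245728 on chromosome 3 (mm10), 136 bases into the gene from the start that the table uses. It lay 171 bases after the RefSeq start at 122245557. No other gene of the table shared the region.

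Gclm was 1 of 1120 genes whose only region lay within 1 kb of their own start. These genes, Gclm included, had a median IL-2 height of 16 (interquartile range 13 to 25) and a median control height of 4. Among them, 10 had a greater IL-2 height than Gclm, namely Nudt6 and Spata5 (153 each), 5730420D15Rik and Socs2 (127 each), Vprbp (124), Mitd1 and Mrpl30 (116 each), Ripk1 and Serpinb6a (114 each) and Tes (112). The genes given with a joint value have paired starts near a common region, so the 10 genes are fewer than 10 regions. These genes are named after their values were seen.

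The sequence upstream of Gclm is shown because the region lies at this start. It is chr3:122245307-122245486 on the plus strand of GRCm38.p6, from RefSeq, and ends before 122245487, the first base of the RefSeq gene. The RefSeq start at 122245557, from which offsets are given here, lies 71 bases after the last base shown. Capitals mark a match to TGACNNNGC, the core of the antioxidant response element through which NRF2 acts, here read on the other strand as GCNNNGTCA.
Gclm upstream: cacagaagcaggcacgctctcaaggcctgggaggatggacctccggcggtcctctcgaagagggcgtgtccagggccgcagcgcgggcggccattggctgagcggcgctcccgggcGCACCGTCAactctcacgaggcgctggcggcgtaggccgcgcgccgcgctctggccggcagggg
The match, GCACCGTCA, begins 134 bases before the RefSeq start, about 301 bases from the region's position. The window searched for each start ran from 250 bases before it to 50 bases after it, and the Gclm region's position lay 122 bases beyond that window. No match to TTCNNNGAA, the palindrome that STAT factors bind, or to the same palindrome with a 4-base spacer was found in the Gclm window. Of all 32851 RefSeq windows of 300 bases, 12.4% held TGACNNNGC on either strand, 8.30% held TTCNNNGAA and 6.95% held the form with the 4-base spacer. A match is a description of the letters and not of a bound site.

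The partner subunit of Gclm, glutathione synthetase and glutathione reductase had no assigned region. Gclc encodes the catalytic subunit of the same ligase, and the nearest region in the table lay 161 kb from the gene, at Elovl5, with heights of 26 with IL-2 and 6 in control. For Gss, glutathione synthetase, the nearest region was 86.9 kb away and assigned to Trpc4ap. For Gsr, glutathione reductase, the nearest region lay 11.7 kb from the gene, assigned to Ubxn8, with 22 with IL-2 and 7 in control. Of all assignments in the table, 97.2% were to a region inside the gene or within 10 kb of it, so the Gsr case lay just outside the usual reach. The table holds regions near genes only, so regions elsewhere were not analysed here.

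Among the glutathione peroxidases, Gpx8 was listed and Gpx1 and Gpx4 were not. Gpx8 is a membrane peroxidase of the endoplasmic reticulum. Its region had heights of 136 with IL-2 and 6 in control (log2 ratio 3.68, highest peak 136). This was the highest IL-2 height among the redox genes, and 7 of the 4934 genes had a higher gene mean. The region lay at position 113050320 on chromosome 13, 3932 bases upstream of the Gpx8 start and inside Cdc20b. The table assigned it to 4 other genes as well: Cdc20b, Gm10735, Mir449a and Mir449b. By start, Gpx8 was the nearest of these 5 genes. It was also the nearest among the RefSeq starts on hand, which lack those of some genes. Cdc20b had 4 further regions with a mean IL-2 height of 45.75. Its highest peak was 136, so none of its regions exceeded the one nearest Gpx8.

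Gpx1, the abundant cytosolic peroxidase, was 228 kb from its nearest region in the table, which, near Qrich1 and Impdh2, had 15 with IL-2 and 5 in control. Gpx4, which removes lipid peroxides and protects cells from ferroptosis, was 30.3 kb from its nearest region, assigned to Abca7 and Hmha1, with 15 with IL-2 and 4 in control. Both of these IL-2 heights lie below the median of all genes in the table.

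By the rule used to find like patterns, the 5 single-region genes closest to Gpx8 over the 2 libraries, leaving out the genes that share its region, were Clstn1 (128 with IL-2 and 6 in control), Ezh2 (137 and 5), Kcnk5 (129 and 7), Gbp4 (126 and 7) and 5730420D15Rik (127 and 5), each pair given with IL-2 first. Likeness was the Euclidean distance of log2(height + 5), from 0.084 to 0.167. With 2 libraries, this measures only that both heights were close.

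Txnrd1, the cytosolic thioredoxin reductase that keeps thioredoxin in its reduced form, had 1 region with heights of 84 with IL-2 and 4 in control (log2 ratio 3.31, highest peak 84). Its control height was below the median of all genes, and 92 of the 4934 genes had a higher mean IL-2 height. The table placed the region 26369 bases inside the gene, at position 82860320 on chromosome 10, and also assigned it to Eid3, 6306 bases upstream of that gene's start. RefSeq gives Txnrd1 3 starts. The region's position lay 26369 bases after the first of them, 1114 bases after the second and 21 bases before the third. Counted by any RefSeq start, Txnrd1 joined Gclm as a redox gene with a region within 1 kb of a start, making 2 of the 5 in place of 1. Use of these starts in the cells was not measured.

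The sequence before the third Txnrd1 start is shown because the region's position falls inside it. It is chr10:82860091-82860340 on the plus strand of GRCm38.p6, from RefSeq, and its last base is the one before the start. Capitals mark a match to TTCNNNGAA, which reads the same pattern on both strands.
Txnrd1 upstream of the third start: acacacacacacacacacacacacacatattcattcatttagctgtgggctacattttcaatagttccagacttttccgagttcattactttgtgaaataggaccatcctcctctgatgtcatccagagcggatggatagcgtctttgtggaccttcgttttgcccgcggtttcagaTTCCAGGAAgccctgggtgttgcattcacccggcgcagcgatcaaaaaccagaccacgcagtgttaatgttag
The match, TTCCAGGAA, begins 73 bases before the start, and its centre is 48 bases from the region's position. The window of the second start held another match, TTCTTTGAA, 230 bases before that start, and a match to the antioxidant response element core, GCTTTGTCA, 92 bases before it. These lie 1340 and 1202 bases from the region's position. The window of the first start held none of the 3 motifs. The marked match overlapped no other motif searched.

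**Figure D2:**
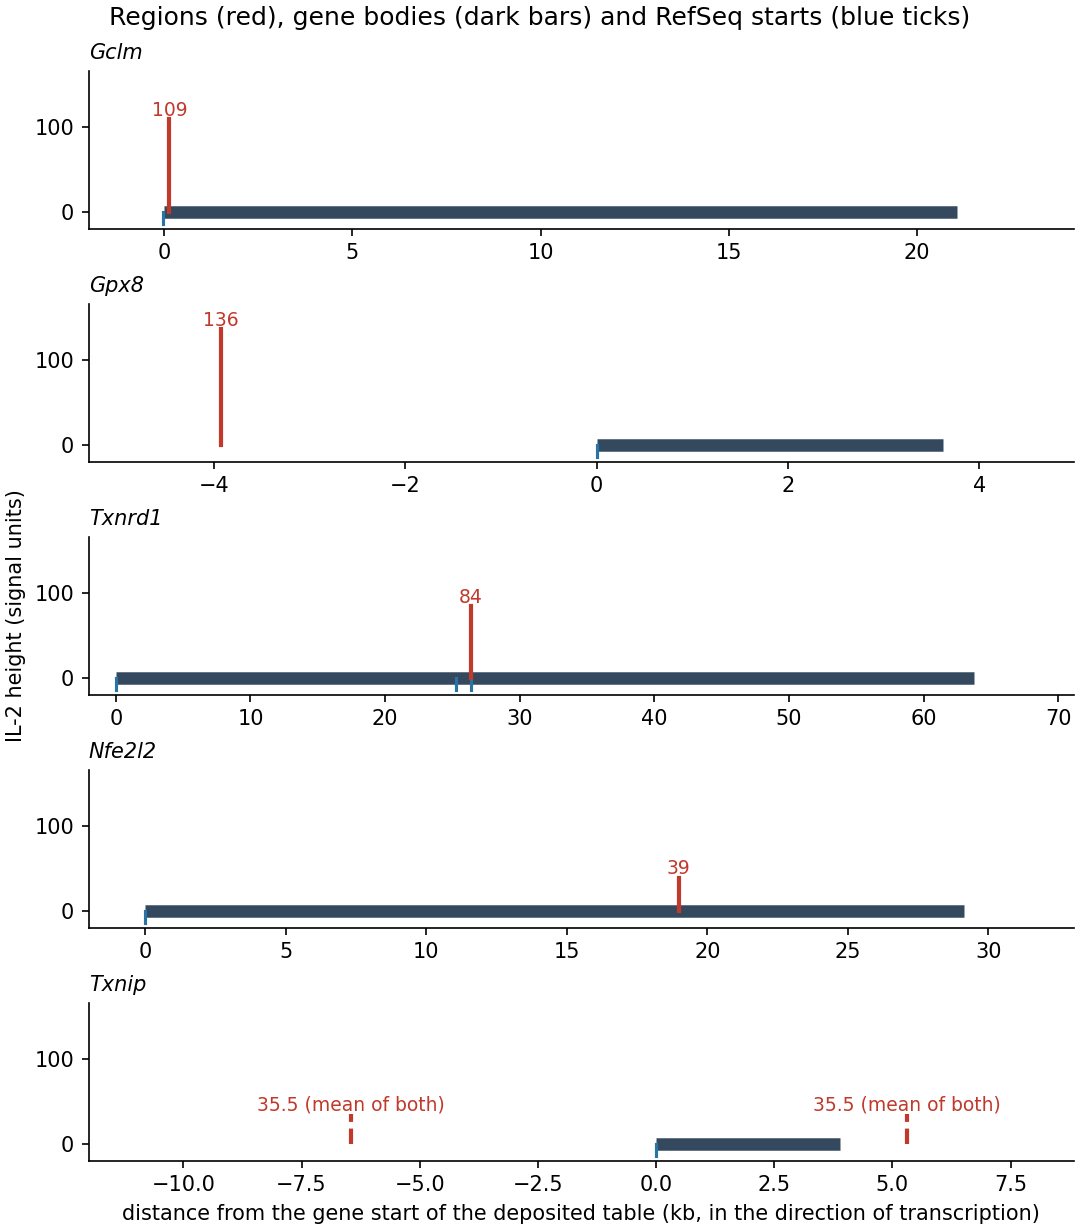
Position of each STAT5 region (red lines) in kb from the gene start of the deposited table (horizontal axis, in the direction of transcription) and its IL-2 height in signal units (vertical axis); dark bars are gene bodies and blue ticks are RefSeq starts. The Gclm region (109) stands at the gene start, that of Txnrd1 (84) at an inner RefSeq start, and that of Gpx8 (136) upstream; for Txnip the dashed lines show the mean of both regions (35.5).

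Over the redox genes, RefSeq windows were on hand for 8 of the 10 genes, as 13 windows. Gpx4 had 4 of these windows and Txnrd1 had 3, which gave them more room for a match. TTCNNNGAA was found for 2 genes, Txnrd1 (in 2 of its windows) and Gpx8. The Gpx8 match, TTCTGGGAA, begins 122 bases before its start, and so lies away from the region upstream. TGACNNNGC was found for 3 genes, Gclm, Txnrd1 and Nfe2l2, and the palindrome with the 4-base spacer for 0. In Nfe2l2 the match was TGACTCCGC, 240 bases before the start. Over all RefSeq windows the shares were 8.30% for TTCNNNGAA, 12.4% for TGACNNNGC and 6.95% for the spacer form. Those shares are per window and the counts here are per gene, so nothing is read from the counts.

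Txnip encodes thioredoxin-interacting protein, an alpha-arrestin that binds thioredoxin and also restrains glucose uptake. It was the only redox gene with 2 regions, and it had the lowest IL-2 height of the 5. The mean height was 35.5 with IL-2 and 6 in control (log2 ratio 1.88), and the highest peak was 38. The deposited mean and highest peak together give IL-2 heights of 38 and 33 for the 2 regions, though not which was which. The regions lay 6453 bases upstream of the start and 5307 bases after it, beyond the gene end, at positions 96551504 and 96563264 on chromosome 3. They thus flanked the gene on both sides. Both were also assigned to Gm15441, a gene on the opposite strand that spans Txnip and contains the second region. That region lay 3537 bases from the Gm15441 start, nearer than to the Txnip start. Of all genes in the table, 22.0% had a higher IL-2 height than Txnip.

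Nfe2l2, which encodes NRF2, had 1 region with heights of 39 with IL-2 and 5 in control (log2 ratio 2.14, highest peak 39). It lay 18977 bases inside the gene, at position 75685664 on chromosome 2, away from the 1 RefSeq start listed for the gene. No other gene of the table shared it. Of all genes, 18.1% had a higher IL-2 height. Txnip and Nfe2l2 had IL-2 heights close to each other, and both lay well under Gpx8, Gclm and Txnrd1. Without replicates, the spread that would separate neighbours in this order is unknown.

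**Figure D3:**
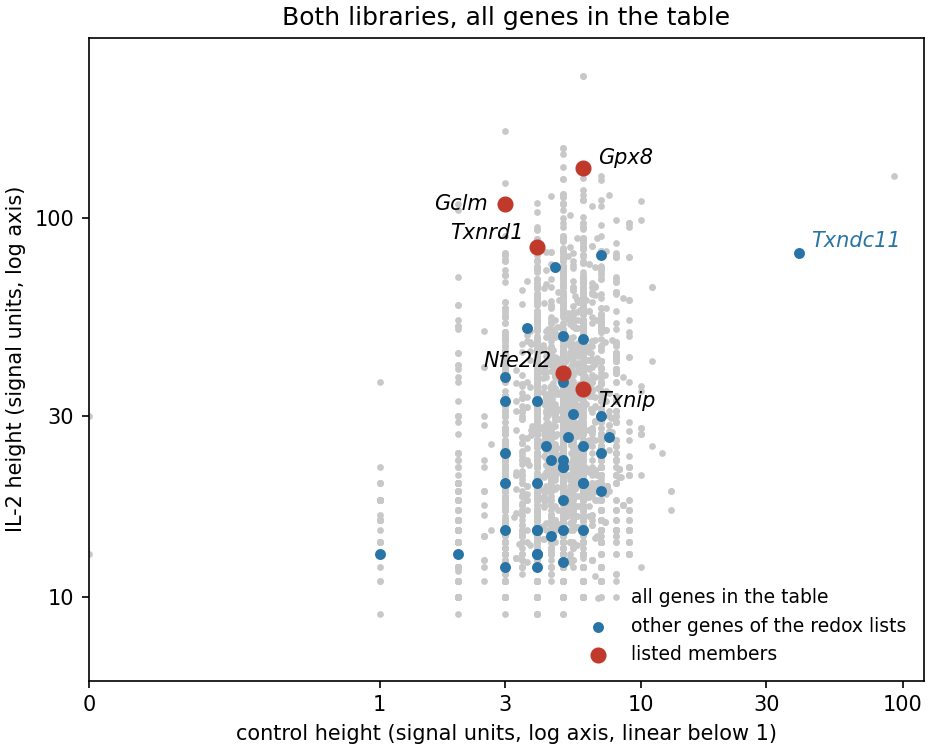
IL-2 height (vertical, log axis) against control height (horizontal, log axis that is linear below 1), both in signal units, for all 4934 genes (grey), the 5 listed redox genes (red) and the other listed genes of the redox lists (blue). Gpx8, Gclm and Txnrd1 stand at the top of the cloud with IL-2 heights of 136, 109 and 84, Txnip and Nfe2l2 stand inside it, and Txndc11 stands apart at a control height of 40.

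The wider redox pathways were described with 12 gene lists, which overlap. Leaving out the 10 genes above, they held 157 genes, of which 41 (26.1%) had an assigned region. The share over all protein-coding RefSeq genes was 19.1%. Of the 41, 37 passed the 2-fold rule, against 83.8% of all genes in the table, and their median log2 ratio was 1.43, close to the 1.42 of all genes. Their IL-2 heights ran from 12 to 81 with a median of 22. These are means over the regions of a gene, and single regions could be higher, as the highest peaks of 131 at Prdx2 and 110 at Me1 show. Counts and medians of single lists include the genes described above, and the shares of 19.1% and 83.8% apply beside each of them. The lists were chosen with earlier results of these data known, so nothing is read from their counts.

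Regulators of NRF2 were the list with the greatest share of genes in the table, 10 of 15, with Nfe2l2 among the 10. Over all protein-coding RefSeq genes the share was 19.1%. All 10 passed the 2-fold rule (median log2 ratio 1.46), as did 83.8% of all genes in the table. Mafg, a small MAF protein that pairs with NRF2 on DNA, had 38 with IL-2 and 3 in control (log2 ratio 2.43), at a region 8427 bases from its start and nearer to Sirt7. Bach1, a repressor that competes with NRF2 for the same elements, had 48 with IL-2 and 6 in control (2.27), inside the gene. These values were near that of Nfe2l2. Maff and Keap1, also of this list, are named after their values were seen, since their regions lay at the start. Maff, another small MAF gene, had 33 with IL-2 and 4 in control at 2 bases from the start of the table. Keap1, whose product marks NRF2 for degradation, had 15 with IL-2 and 4 in control at 4 bases from its start. Its height was below the median of all genes.

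Genes known as NRF2 targets were listed for 6 of 24, all past the 2-fold rule (median log2 ratio 2.13), and the highest ratios were those of Gclm and Txnrd1. Me1, the cytosolic malic enzyme, which makes NADPH, came next with a mean of 51.3 with IL-2 and 3.67 in control over 3 regions (log2 ratio 2.70). All 3 regions lay deep inside the gene, and the highest peak was 110. Me1 also led the NADPH supply list, of which 6 of 19 genes were listed and 4 passed the 2-fold rule (median log2 ratio 1.52). Me2, the mitochondrial malic enzyme, had 33 with IL-2 and 3 in control (2.25), and Mthfd2, a mitochondrial folate enzyme, had 25 with IL-2 and 4.33 in control (1.69) over 3 regions.

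Glutathione synthesis and transport genes were listed for 5 of 21, and 4 of these passed the 2-fold rule (median log2 ratio 1.15). After Gclm came Glo1, glyoxalase 1, which uses glutathione to clear methylglyoxal, with 80 with IL-2 and 7 in control (log2 ratio 2.82). Its region lay 10477 bases upstream, and another listed gene, 1700097N02Rik, had the nearest start. Abcc4, an efflux transporter, had 15 with IL-2 and 4 in control (1.15) at 171 bases from its start. Gpx8 was the only one of the 8 glutathione peroxidases in the table.

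Glutathione transferases were listed for 3 of 26, all past the 2-fold rule (median log2 ratio 1.76). Gstt4 and Gstt2 shared a region with 49 with IL-2 and 5 in control, which lay 2065 bases upstream of Gstt4, while a second region of Gstt2 had 12 with IL-2 and 6 in control. Hpgds, which makes prostaglandin D, had 13 with IL-2 and 4 in control (log2 ratio 1.00). Of 4 glutaredoxins, Glrx was listed, with 23 with IL-2 and 5 in control (1.49).

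Thioredoxins and related genes were listed for 6 of 25, and 5 of these passed the 2-fold rule (median log2 ratio 1.75). Txnrd1 and Txnip had the largest ratios, and Txndc12, a thioredoxin-domain protein of the endoplasmic reticulum, followed with 24 with IL-2 and 3 in control (log2 ratio 1.86). Its region was nearer to the start of Kti12. Txn1 and Txndc11 fall outside the naming rule and were added after their values were seen. Txn1, thioredoxin itself, had 20 with IL-2 and 3 in control (1.64), 2715 bases into the gene. Txndc11 had 81 with IL-2 and 40 in control, a ratio of 1.91, at a region upstream that it shares with Zc3h7a. It was the only gene of these lists with an interval called in the control library.

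Peroxiredoxins and sestrins were listed for 3 of 10, all past the 2-fold rule (median log2 ratio 1.33). Prdx2, a cytosolic peroxidase that uses thioredoxin, had a mean of 74.3 with IL-2 and 4.67 in control over 3 regions (log2 ratio 3.04). The strongest, with 131 with IL-2 and 6 in control, lay 6816 bases from the Prdx2 start. Another, 12976 bases from that start, had 60 with IL-2 and 5 in control. Both were nearest, among listed genes, to the start of Junb. The region 3792 bases upstream of Prdx2 had 32 with IL-2 and 3 in control and was nearest to the start of Rnaseh2a. The mean given for Prdx2 thus holds no region whose nearest start was that of Prdx2. Sesn2 had 26.5 with IL-2 and 7.5 in control (1.33) and Sesn3 had 12 with IL-2 and 3 in control (1.09). None of 5 superoxide dismutase and catalase genes was listed.

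Genes of the NADPH oxidase complexes, which make superoxide, were listed for 4 of 13, all past the 2-fold rule (median log2 ratio 1.49). The largest ratios were those of Rac2 (26.5 with IL-2 and 5.25 in control over 4 regions), Cyba (30 and 7) and Ncf1 (22 and 5). Regulators and relatives of Txnip were listed for 4 of 10, all past the 2-fold rule (median log2 ratio 1.51). Map3k5, a kinase held inactive by thioredoxin, had 37 with IL-2 and 5 in control (log2 ratio 2.07). Arrdc3, an alpha-arrestin, had 13 with IL-2 and 1 in control (1.58). Mlx, whose product forms the factor that drives Txnip under glucose, had 22 with IL-2 and 5 in control (1.43), at a region nearer to Coasy. The 4 listed genes of the wider lists with a ratio under 2 were Oplah, Txndc11, Idh1 and Shmt2.

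**Figure D4:**
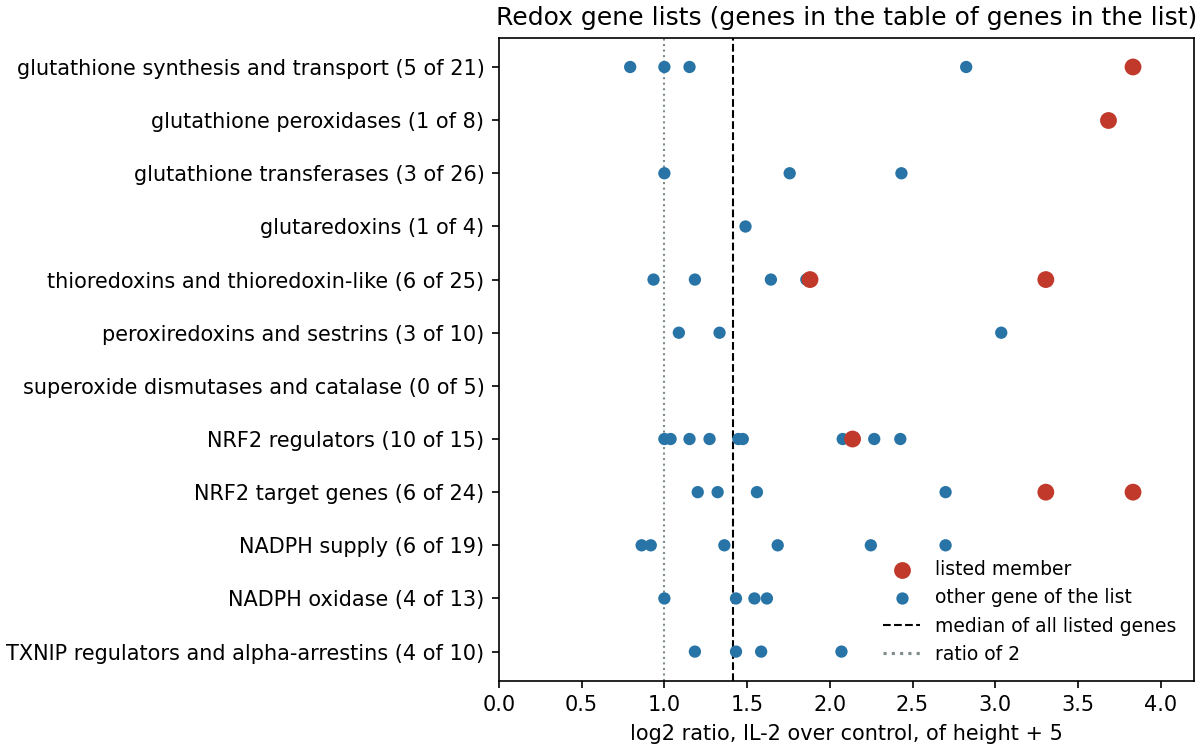
Log2 ratio of IL-2 over control, of height + 5 (horizontal axis), for every listed gene of the 12 redox lists (rows, with the number of genes in the table out of the list), members in red and other genes in blue. Gclm (3.83), Gpx8 (3.68) and Txnrd1 (3.31) stand at the right, and most blue points lie around the median of all genes (1.42, dashed line), with the ratio of 2 as a dotted line.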

How the data were processed

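STAT5 ChIP-seq was measured in 1 IL-2 and 1 control library. The submitters' processing notes name BWA and build mm10. The sources used here do not give the peak caller, depth or scaling. The authors deposited a gene table with heights in units of signal. Its interval names show that regions were called in each library separately. It gives 1 position per region, and what point of the region that is was not stated.

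Members were matched by gene name, and members and lists were chosen with earlier results of these data known. Ratios used a pseudocount of 5 and a 2-fold rule. Where gene means fix the height of a single region, it was computed by subtraction (2424 of 5703 regions). RefSeq genes and start windows of GRCm38.p6, which is the mm10 build, gave starts and sequences, and 4799 of 4934 gene identifiers matched. Named genes were all members, genes sharing their regions, the 3 largest log2 ratios of each wider list and the 5 single-region genes nearest to the member of highest IL-2 height. Alternatives covered the pseudocount, the size rule, scaling, the IL-2 value and low heights. Calculations were checked on simulated data (Python 3.11.15, pandas 2.3.3).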

Additional observations from a re-analysis of the deposited data

How the results depend on the processing

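No paired analysis was possible because there was a single library on each side, and leaving one out left no comparison. The median log2 ratio of the 5 listed redox genes, 3.31, became 4.09 with a pseudocount of 1, 2.75 with a pseudocount of 10 and 1.90 when the libraries were brought to equal medians. That scaling shifted the median of all genes by -1.28. After it, 3 of the 5 (Gpx8, Gclm and Txnrd1) passed the 2-fold rule, as did 586 of all genes (11.9%), and Txnip and Nfe2l2 had log2 ratios of 0.40 and 0.71. All 5 stayed above 0, as did 58.7% of all genes. Which scaling is right cannot be told from the table. Of the 5 listed redox genes and the 41 other listed genes of the redox lists together, 42 passed the 2-fold rule. After scaling 8 did, and 13 passed the 4-fold rule. The 5 redox genes, picked partly for such values, gave 5, 3 and 4 of these counts. The count over all genes, 4133, became 1141 with the 4-fold rule and 2426 among genes of higher signal, which holds fewer genes by construction. The count of redox genes with a region near their start was 1 within 1 kb, 2 within 5 kb and 2 with every RefSeq start, an alternative chosen after seeing the data. The palindrome was found for 2 redox genes, and with the 4-base spacer for 0. Depth is unknown, so no counting error could be given.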

Other observations

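Among the 41 other listed genes of the redox lists, 12 had a region within 1 kb of the start that the table uses and 14 had one within 1 kb of any RefSeq start of the gene. No RefSeq start was on hand for Oplah, Gstt2, Me2 and Rac2, which were counted as not near one, so 14 is a lower bound. The same counts were not made over all genes of the table, so nothing is read from 12 or 14. The 2 that differ between the counts, named after their values were seen, are Nadk and Arrdc3. Nadk, the kinase that makes NADP, had 13 with IL-2 and 2 in control, at 1560 bases from the start of the table and 137 bases from a RefSeq start. Arrdc3 had its region at 2498 bases from the start of the table and 175 bases from a RefSeq start. Both IL-2 heights were below the median of all genes, unlike that of Txnrd1, whose region also lay at an inner RefSeq start.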
